A study of Mus musculus with 11 samples.

Results

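The collagens, laminins and integrins of the choroid plexus (CP) were followed through relapsing-remitting experimental autoimmune encephalomyelitis (EAE), a mouse model of multiple sclerosis. Members were chosen by gene symbol alone, as every collagen chain, laminin chain and integrin subunit on the array apart from 2 integrins that the rule leaves out. This gave 67 of 15946 genes, made up of 37 collagens, 10 laminins and 20 integrins. Female SJL mice, 6 to 8 weeks old, received a peptide of myelin proteolipid protein (PLP) in complete Freund's adjuvant, whereas control mice received PBS in that adjuvant. Both also received pertussis toxin. The onset group was taken on days 12 to 14 (3 pools), the remission group on days 19 to 22 (3 pools), the relapse group on days 27 to 31 (2 pools) and the control group on day 14 (3 pools). Each pool held the CP of 3 perfused mice, so no value belongs to a single animal. Relapse occurred in some of the mice only. Day of collection and phase cannot be told apart for remission and relapse against control, or in any comparison between phases.

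Basement membranes are thin sheets that lie under epithelia and around blood vessels. Their networks are built from laminin, a trimer of an alpha, a beta and a gamma chain, and from type IV collagen. Fibrillar collagens and their partners fill the interstitial matrix, and integrins are alpha-beta receptors through which cells hold on to these proteins or, on leukocytes, to other cells. In the CP a basement membrane underlies the epithelium that makes the cerebrospinal fluid, and others surround the fenestrated capillaries of its stroma.

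RNA was measured on Illumina MouseRef-8 arrays, and values are given as log2 of the quantile-normalized signal of the brightest probe of a gene. A probe counts as above background where its detection p is under 0.01. Between 8687 and 10221 probes were above background per pool. Of the 67 members, 22 were above background in all 11 pools, 16 in some and 29 in none. The markers of CP epithelium were present, with 6 of 6 measured genes, transthyretin among them, above background in every pool and a mean log2 signal of 15.90 to 15.97 throughout. Oligodendrocyte markers were present as well, at a mean of 9.89 to 10.70 at onset, 10 to 10.69 in remission, 10.72 to 10.73 in relapse and 9.38 to 10.51 in control. Onset pool 3 and remission pool 3 were closer than any other pair of pools. Of the 10012 probes detected in that pair, 0 were over 1 log2 unit apart, where the next closest pairs had 7 such probes. Main results are therefore also given without these pools.

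Col4a1 and Col4a2 had the 2 largest differences of any member over the 6 comparisons, and the sequence around the starts of Col4a1 and Col4a2 is shown because these genes, which encode the chains of the network found in nearly all basement membranes, varied together across pools. They lie head to head in the mouse genome, and their RefSeq start positions (build GRCm38.p6) are 21 bases apart on opposite strands, so that the first bases of both transcripts overlap. The windows below run from 250 bases before each start to 50 bases after it, at chr8:11312777-11313076 on the minus strand for Col4a1 and at chr8:11312555-11312854 on the plus strand for Col4a2. Capitals mark the 78 bases that the windows share, which read as reverse complements of each other.
Col4a1: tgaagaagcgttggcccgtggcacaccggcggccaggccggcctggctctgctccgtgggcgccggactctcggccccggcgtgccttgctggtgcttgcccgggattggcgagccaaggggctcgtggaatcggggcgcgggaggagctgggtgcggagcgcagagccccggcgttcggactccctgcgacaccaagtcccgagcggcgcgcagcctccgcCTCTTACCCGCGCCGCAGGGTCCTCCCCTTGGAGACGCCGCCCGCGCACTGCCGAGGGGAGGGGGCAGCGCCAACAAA
Col4a2: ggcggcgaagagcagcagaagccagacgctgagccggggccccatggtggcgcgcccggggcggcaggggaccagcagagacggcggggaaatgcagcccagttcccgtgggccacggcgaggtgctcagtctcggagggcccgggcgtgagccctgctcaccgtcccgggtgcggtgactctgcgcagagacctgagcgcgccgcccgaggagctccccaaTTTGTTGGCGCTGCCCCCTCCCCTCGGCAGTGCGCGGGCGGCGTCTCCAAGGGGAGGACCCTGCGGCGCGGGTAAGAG

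These windows were rich in G and C, at 74.0% for Col4a1 and 73.7% for Col4a2, where the median over all promoter windows was 52.7%. On either strand, CCCTCCCC was found once in each window, and it is the same stretch, inside the shared bases. It was present in 10.8% of all 32851 windows and in 29.6% of the 54 windows of the 48 members that the table lists. GGGCGG, the core letters of the GC box, was found 1 time in the Col4a1 window and 3 times in the Col4a2 window, with 1 match in the shared bases that does not overlap CCCTCCCC. It was present in 35.7% of all windows and in 61.1% of the member windows. TATAAA, the TATA box, was in neither window and in 13.6% of all. CCAAT was found 1 time in each window and in 37.4% of all. The match in the Col4a1 window lies outside the shared bases, and the match in the Col4a2 window reaches into them with its last base. Among the 48 members with a window, the only others that start head to head within 2000 bases were Col4a5 and Col4a6, 1343 bases apart. Members without a window, Col4a3, Itgae and Itgb2 among them, could not be searched, so pairs such as Col4a3 with Col4a4 were not examined.

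Col4a1 had its lowest levels in relapse. Its log2 signal was 11.64, 11.90 and 12.12 at onset, 11.53, 11.71 and 12.14 in remission, 10.45 and 11.07 in relapse, and 11.28, 11.25 and 11.42 in control. All onset and remission pools lay above all control pools, and both relapse pools lay below them. Relapse against onset was the comparison that passed the test, with a log2 difference of -1.13 ± 0.20 (SE of the fit, n = 2 and 3), or 0.458-fold (95% interval 0.339 to 0.617). Its limma p, adjusted over all probes by Benjamini-Hochberg, was 0.0423. Against remission the difference was -1.04 ± 0.20 (adjusted p = 0.158). Against control the differences were 0.57 ± 0.18 at onset (adjusted p = 0.219), 0.48 ± 0.18 in remission (adjusted p = 0.554) and -0.56 ± 0.20 in relapse (adjusted p = 0.830), and none passed. The call in relapse against onset held in 11 of 21 alternative analyses. With a single pool left out, it was lost without relapse pool 1 (-0.82, adjusted p = 0.394) or relapse pool 2 (-1.44, 0.0609). It was lost also without onset pool 1, 2 or 3 (adjusted p = 0.0725, 0.0798 and 0.143), remission pool 2 (0.0661) or control pool 1 (0.0882). When onset pool 3 and remission pool 3 were dropped at the same time it was -1.01 (adjusted p = 0.0479).

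Col4a2 followed the same course. It stood at 12.58, 12.63 and 12.86 at onset, 12.38, 12.59 and 12.93 in remission, 11.80 and 11.97 in relapse, and 12.27, 11.82 and 12.32 in control. The relapse pools overlapped control and lay below every onset and remission pool. Relapse against onset differed by -0.80 ± 0.17 (adjusted p = 0.0820) and relapse against remission by -0.75 ± 0.17 (adjusted p = 0.332). Against control the difference was 0.55 ± 0.15 at onset (adjusted p = 0.139) and 0.50 ± 0.15 in remission (adjusted p = 0.367). Across the 11 pools, after subtraction of each group's mean, Col4a1 and Col4a2 varied together, with Pearson's r = 0.757 (exact permutation p = 0.00694 over all orders within groups, two-sided, adjusted p = 0.0278) and Spearman's rho = 0.773 (exact permutation p = 0.00463, adjusted p = 0.0185). With relapse pool 1 and remission pool 3 left out r was 0.702. The family held 4 pairs of partner chains. Many other probes vary together in these pools as well: over all pairs of the 8371 probes above background in every pool, the median r was 0.0144 and the 5th and 95th percentiles were -0.757 and 0.766.

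**Figure D1:**
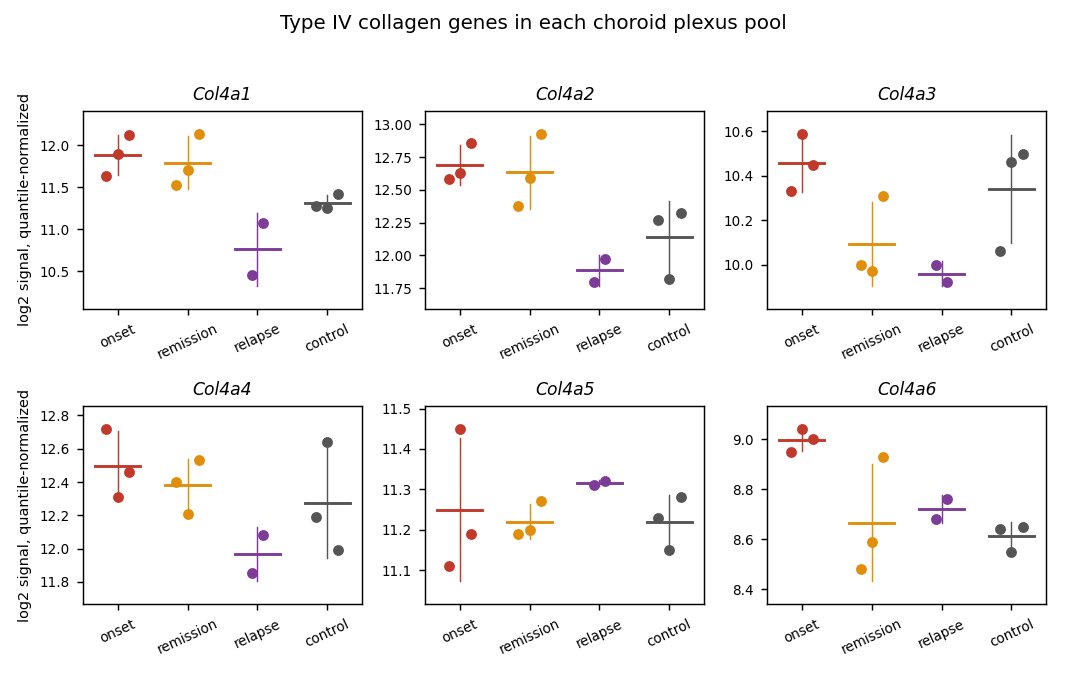
Log2 quantile-normalized signal of the type IV collagen genes in each pool of onset, remission, relapse and control. Points are pools, horizontal bars are group means and vertical lines are 1 SD. Both relapse pools of Col4a1 lie below all control pools (10.45 and 11.07), and Col4a5 stays between 11.11 and 11.45 in all 11 pools.

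The other type IV chains form further networks, best known from the kidney glomerulus, where Col4a3, Col4a4 and Col4a5 join. Col4a3 stood at 10.33, 10.59 and 10.45 at onset, 10, 9.97 and 10.31 in remission, 10 and 9.92 in relapse, and 10.06, 10.46 and 10.50 in control. Col4a4 stood at 12.72, 12.31 and 12.46 at onset, 12.40, 12.21 and 12.53 in remission, 11.85 and 12.08 in relapse, and 12.19, 12.64 and 11.99 in control. For both genes the relapse pools lay below every onset pool, by -0.50 ± 0.14 for Col4a3 (adjusted p = 0.200) and -0.53 ± 0.18 for Col4a4 (adjusted p = 0.306) between group means, and neither passed. Another probe of Col4a4 gave -0.45 (adjusted p = 0.227). Col4a5 gave 0.06 ± 0.10 in relapse against onset (95% interval -0.16 to 0.28). Col4a6 was dim. It was above background in 3 of 3 onset pools (8.95, 9.04 and 9.0), 1 of 3 remission pools, 0 of 2 relapse pools and 0 of 3 control pools, with adjusted p = 0.133 for onset against control.

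Among the other basement membrane collagens, Col18a1, whose end is cleaved to give endostatin, stood at 13.54, 13.59 and 13.70 at onset and at 13.93, 13.73 and 13.88 in control (-0.23 ± 0.10, adjusted p = 0.430). All onset pools lay below all control pools. Col15a1, a related chain, was above background in 2 of 3 remission pools and in no other pool. It reached 9.18 and 9.31 in those, 8.70 in the third remission pool and 8.28 to 8.85 in control, with overlap. The lower bound for the fold between the means was 1.01 in remission (adjusted p = 0.383). Bounds of this kind use, for a group not above background, the lowest signal that was above it on each array. They compare group means and leave out the spread between pools. Col7a1, the anchoring fibril collagen of skin, was not above background in any pool.

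By family, at most 1 member passed the test in any comparison. At onset 0 of 67 members were called higher and 0 lower with limma, where 1.06% and 0.154% of all 23978 probes were. At an unadjusted p under 0.05 there were 9 higher and 3 lower, against 5.32% and 4.4% of all probes. In remission 1 member was called higher (background 0.204%) and 0 lower (background 0%), and 11 and 1 at the unadjusted threshold (3.95% and 3.12%). In relapse 0 were called higher (0.0125%) and 0 lower (0%), and 4 and 3 at the unadjusted threshold (3.53% and 2.15%). The median difference over the 67 members was 0.05 at onset, 0.05 in remission and 0.01 in relapse, beside -0.02, -0.01 and -0.01 over all probes. By family the median at onset was 0.12 for the 9 basement membrane collagens, 0.08 for the 10 fibrillar collagens, -0.02 for the 18 other collagens, 0.06 for the 10 laminins, -0.02 for the 15 matrix integrins and 0.15 for the 5 leukocyte integrins. These medians take in all members, also those above background in no pool.

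**Figure D2:**
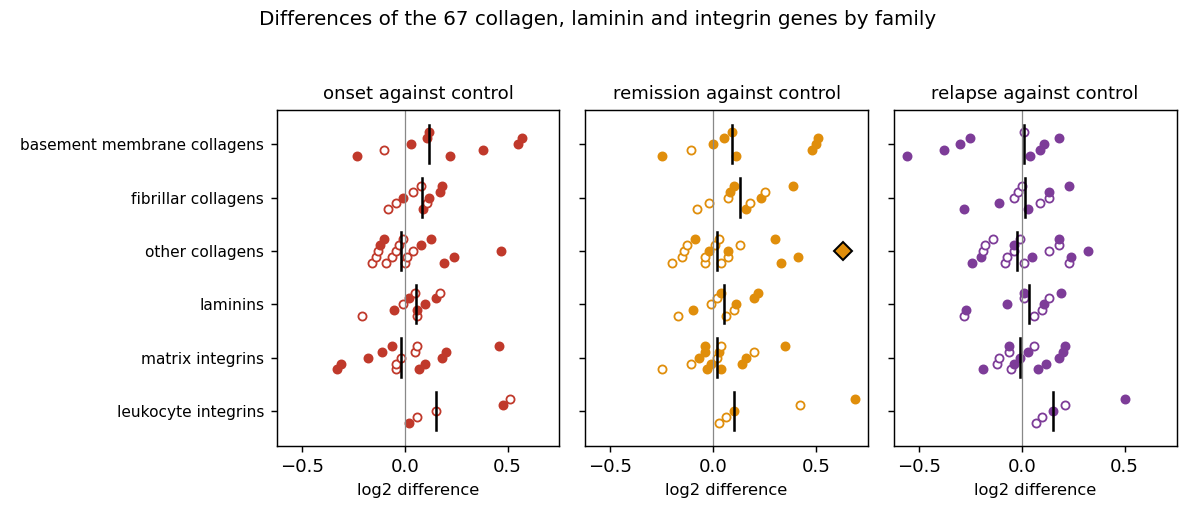
Log2 difference of each phase against control for the 67 members, by family. Filled points are genes above background in 2 or more pools, open points are dimmer genes, for which the difference is of measured signals only, the diamond is the 1 called member (Col6a1 in remission, 0.63), and black bars are medians over all genes of a family.

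Between phases, 0 members were called in remission against onset (background 0%), with 4 higher and 2 lower at the unadjusted threshold, at which 4.1% of all probes stood in either direction. With same-numbered onset and remission pools treated as pairs, 0 members were called and 9 stood at the unadjusted threshold. In relapse against onset, Col4a1 was the 1 member called lower (0.196% of all probes) and 0 were called higher (0.0959%). At the unadjusted threshold 9 were lower (4.21%) and 4 higher (5.03%). Of these 9, 5 were basement membrane collagens, all of them type IV chains, out of the 9 genes of that family. The median difference of the family was -0.27, beside 0.01 over all probes. Col18a1, of the same family, was among the 4 higher (0.28 ± 0.11, adjusted p = 0.408). Col4a5, Col7a1 and Col15a1 differed by 0.06, 0.11 and 0.07. In relapse against remission 0 members were called lower (0.0292%) or higher (0%), with 8 and 1 at the unadjusted threshold (2.65% and 2.86%), among them Col4a1, Col4a2 and Col4a4. Comparisons of relapse with onset and with remission share the relapse pools, and the phases share the control pools.

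Endothelial markers, like Col4a1 and Col4a2, had their highest levels at onset and in remission. The list held 10 genes, of which 9 were above background in at least 2 pools and Kdr in none. Its mean log2 signal was 10.61 to 10.87 at onset, 10.61 to 10.89 in remission, 10.02 to 10.12 in relapse and 9.96 to 10.26 in control. Onset and remission lay above relapse and control without overlap, and relapse overlapped control. Of the 10, 5 were called higher at onset and 5 in remission, 0 in relapse, and 3 were called lower in relapse against onset. Flt1, a VEGF receptor, differed from control by 1.02 ± 0.11 at onset (adjusted p = 0.00351) and from onset by -1.03 in relapse (adjusted p = 0.0188). Neutrophil markers differed between these phases as well, with a mean over those above background of 10.52 to 11.37 at onset, 9.60 to 10.52 in remission, 8.95 to 8.99 in relapse and 8.78 to 9.64 in control. Of 9 neutrophil genes, 5 were called higher at onset and 5 lower in relapse against onset. Of 6 neuron genes, Gad1, which makes the transmitter GABA, was called higher in relapse against onset (1.23, adjusted p = 0.0404). The part of endothelial, neutrophil or neuronal RNA in the type IV collagen result was not tested, and in these bulk samples fewer cells of a type and less RNA per cell cannot be told apart.

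**Figure D3:**
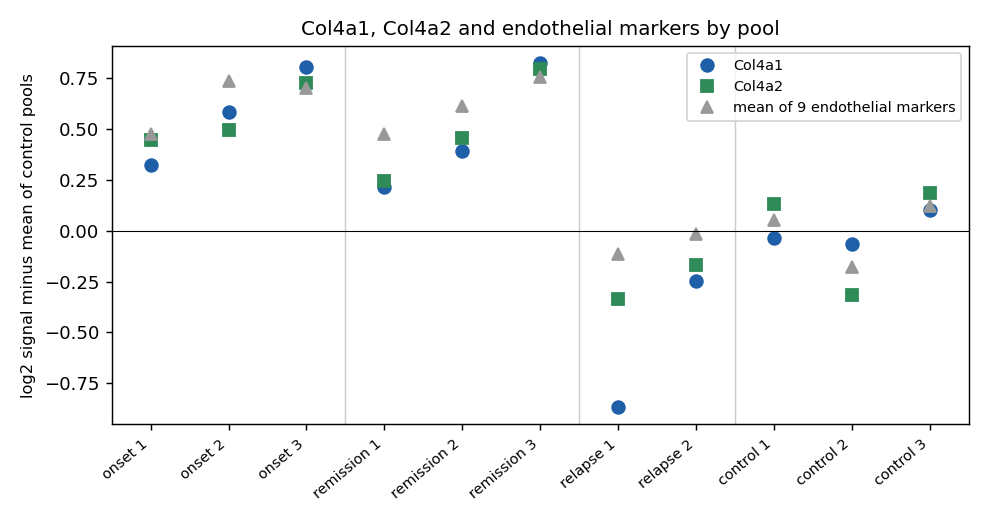
Log2 signal of Col4a1 (circles), Col4a2 (squares) and the mean of 9 endothelial markers (triangles) in each pool, each minus its mean in the 3 control pools. The 6 onset and remission pools lie above zero for all of them, and the 2 relapse pools lie below zero, for the endothelial markers within the range of the control pools.

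Col6a1 was the member called in remission. It encodes a chain of collagen VI, which forms beaded filaments in the interstitial matrix near cells. Its signal was 10.83, 10.60 and 11.04 at onset, 10.90, 11.01 and 11.02 in remission, 10.68 and 10.66 in relapse, and 10.40, 10.19 and 10.46 in control. Every EAE pool lay above every control pool. The difference was 0.63 ± 0.11 in remission, or 1.55-fold (95% interval 1.32 to 1.82, n = 3 each, adjusted p = 0.0409). It was 0.47 ± 0.11 at onset (adjusted p = 0.0580) and 0.32 ± 0.12 in relapse (adjusted p = 0.833), and neither passed. Another probe of Col6a1, above background in all pools, gave 0.30, 0.51 and 0.19 at onset, in remission and in relapse, whereas the remaining probe was not above background in any. The call held in 8 of 21 alternative analyses. With a single pool left out, it was lost without remission pool 1, 2 or 3 (adjusted p = 0.0778, 0.189 and 0.137), relapse pool 1 or 2 (0.0785 and 0.0781) or control pool 1 or 2 (0.172 and 0.168). When onset pool 3 and remission pool 3 were dropped at the same time the difference was 0.61 (adjusted p = 0.156). Col6a2, the partner chain, differed by 0.30 ± 0.12 in remission (adjusted p = 0.617), with 9.5, 9.40 and 9.28 in remission and 9.2, 8.80 and 9.28 in control.

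Stromal fibroblast markers were measured beside it. Of 7 genes on the array 4 were above background in at least 2 pools, with a mean log2 signal of 13.69 to 14.01 at onset, 13.81 to 13.86 in remission, 13.72 to 13.77 in relapse and 13.45 to 13.62 in control, again without overlap between EAE and control pools. Pdgfra, a receptor that marks fibroblasts, was the 1 marker called, at onset (1.00 ± 0.13, adjusted p = 0.00500), and differed by 0.62 in remission (adjusted p = 0.107). Over all 7 measured genes the median difference from control was 0.05 at onset, 0.11 in remission and 0.14 in relapse. The part of fibroblast RNA in the Col6a1 result was not tested.

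**Figure D4:**
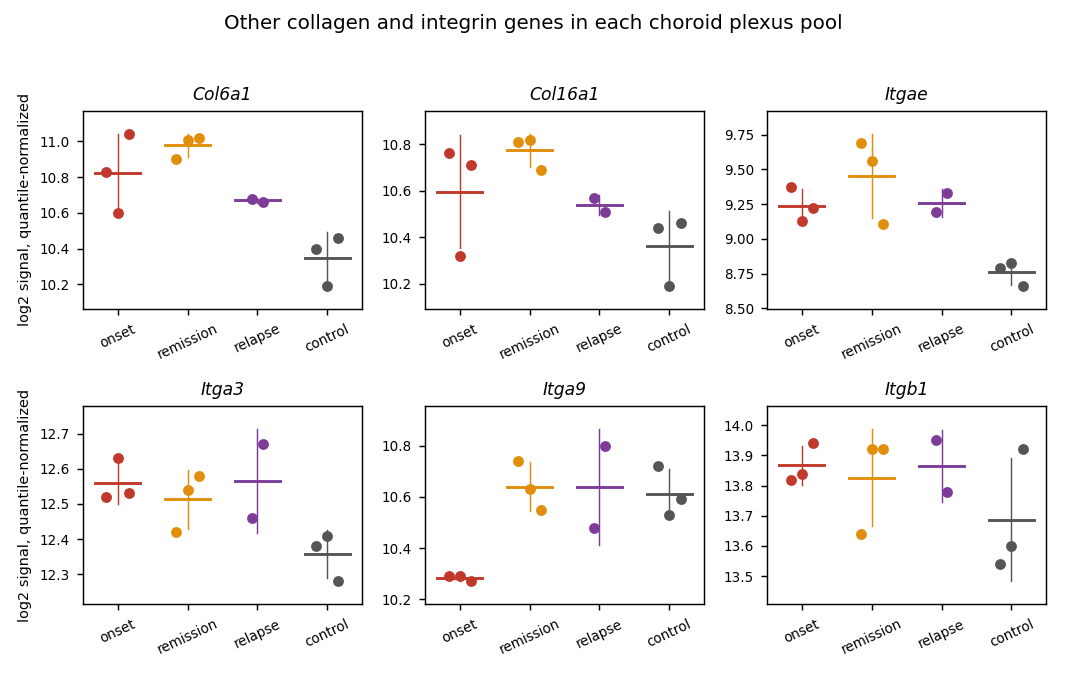
Log2 quantile-normalized signal of 2 collagen and 4 integrin genes in each pool of onset, remission, relapse and control. Points are pools, horizontal bars are group means and vertical lines are 1 SD. For Col6a1, Itgae and Itga3 every EAE pool lies above every control pool, and for Itga9 the 3 onset pools (10.27 to 10.29) lie below all others.

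Col16a1, a collagen that attaches to fibrils, stood at 10.81, 10.82 and 10.69 in remission and at 10.44, 10.19 and 10.46 in control (0.41 ± 0.11, adjusted p = 0.284). Col23a1, a transmembrane collagen, was dim, with 8.93, 8.98 and 8.97 in remission and 8.78, 8.49 and 8.60 in control (adjusted p = 0.206). It was above background in 1 onset pool and 2 remission pools only. Col8a1 and Col8a2, short-chain collagens that build sheet-like networks and are known from the cornea, were above background in all pools and stood between 14.77 and 15.24 for Col8a1 and between 14.75 and 15.12 for Col8a2. Both relapse pools of Col8a1 (14.99 and 14.77) lay below every onset and control pool, by -0.28 ± 0.12 against onset (adjusted p = 0.459) and -0.20 ± 0.12 against control (adjusted p = 0.931). Col8a2 differed from control by -0.10 ± 0.09 at onset, -0.09 ± 0.09 in remission and -0.04 ± 0.10 in relapse. Col26a1, a collagen of testis and ovary, was above background in 1 onset, 1 remission and 1 control pool. The remaining 11 of the 18 other collagens were above background in no pool, among them Col10a1 and the chains of collagen IX, which belong to cartilage.

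The fibrillar collagens, which make the load-bearing fibrils of connective tissue, gave no call, and their smallest adjusted p at onset was 0.741. Col1a1 stood at 9.30, 9.41 and 9.57 at onset, 9.35, 9.78 and 9.32 in remission, 9.19 and 9.59 in relapse, and 9.25, 9.03 and 9.49 in control, with overlap in every comparison. Its difference from control was 0.17 ± 0.15, 0.23 ± 0.15 and 0.13 ± 0.17 in the 3 phases. Col5a1, which joins type I fibrils and limits their width, was tight among pools and differed by 0.12 ± 0.09 at onset (95% interval -0.07 to 0.30). Col27a1 and Col1a2 were above background in 2 and 3 pools, none of them relapse or control, with adjusted p = 0.741 and 0.914 at onset. Col3a1 spread widely within groups, from 8.82 to 10.39 at onset and from 9.22 to 10.06 in control, which left an interval of -0.73 to 0.72 for its difference.

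Laminins gave no call in any comparison. Of 10 chains 5 were above background in all pools and 5 in none. Lama2, an alpha chain known from muscle and brain vessels, stood at 9.64, 9.54 and 9.45 in remission, 9.30 and 9.21 in relapse, and 9.46, 9.22 and 9.30 in control. The difference was 0.22 ± 0.08 in remission against control (adjusted p = 0.566) and -0.22 ± 0.09 in relapse against onset (adjusted p = 0.468). Lama5, the alpha chain of many epithelial and vascular basement membranes, had 11.81 and 11.82 in relapse, above the control pools at 11.67, 11.68 and 11.77, whereas remission lay below them at 11.57, 11.59 and 11.65. Relapse against remission differed by 0.21 ± 0.09 (adjusted p = 0.892). Lamb1, the beta chain of most early and vascular laminins, had the widest spread of the laminins. It stood at 12.19, 11.32 and 11.90 at onset and at 11.85, 12.38 and 10.99 in control, so that its interval at onset ran from -0.56 to 0.68. Lamb2 and Lamc1, the gamma chain that both beta chains join, differed from control at onset by 0.10 ± 0.10 and -0.05 ± 0.13. Across pools, Lamc1 gave r = 0.469 with Lamb1 (exact permutation p = 0.0625, adjusted p = 0.125) and rho = 0.736 (exact permutation p = 0.0278, adjusted p = 0.0556). With Lamb2 it gave r = -0.123 (exact permutation p = 0.727, adjusted p = 0.727) and rho = -0.391 (exact permutation p = 0.269, adjusted p = 0.269). With the 2 pools farthest from the median of the beta chain left out, r was 0.387 for Lamb1 and -0.0463 for Lamb2.

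The matrix integrins also gave no call. Itga3 and Itga6 are alpha subunits of laminin receptors. Itga3 stood at 12.52, 12.63 and 12.53 at onset, 12.42, 12.54 and 12.58 in remission, 12.46 and 12.67 in relapse, and 12.38, 12.41 and 12.28 in control. Every EAE pool lay above every control pool, by small amounts of 0.20 ± 0.08, 0.16 ± 0.08 and 0.21 ± 0.09 between means (adjusted p = 0.427, 0.774 and 0.872). Itga6 stood at 10.65, 10.53 and 10.71 at onset and at 10.90, 11.33 and 10.59 in control (-0.31 ± 0.17, adjusted p = 0.624). Itgb1, the beta subunit shared by most matrix integrins, stood at 13.82, 13.84 and 13.94 at onset, 13.64, 13.92 and 13.92 in remission, 13.95 and 13.78 in relapse, and 13.54, 13.60 and 13.92 in control. The groups overlapped, with 0.18 ± 0.11 at onset (adjusted p = 0.689). Its other probe was above background in 4 pools only. Itga6 and Itgb1 gave r = -0.672 across pools (exact permutation p = 0.123, adjusted p = 0.164) and rho = -0.673 (exact permutation p = 0.102, adjusted p = 0.136), and r was -0.679 without control pool 2 and relapse pool 2.

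Itga9, which binds tenascin and VCAM-1, had its lowest levels in the 3 onset pools. It stood at 10.29, 10.29 and 10.27 at onset, 10.74, 10.63 and 10.55 in remission, 10.48 and 10.80 in relapse, and 10.72, 10.53 and 10.59 in control. The difference at onset was -0.33 ± 0.09 (adjusted p = 0.142), and relapse against onset gave 0.36 ± 0.10 (adjusted p = 0.211). Itga11, a collagen receptor of fibroblasts, was dim and above background in 1 onset and 1 remission pool. Its signal was 8.79, 8.76 and 8.93 at onset and 8.41, 8.25 and 8.44 in control, with no overlap (adjusted p = 0.0749). Itga7, another laminin receptor subunit, was above background in 5 pools, none of them control, and stood at 9.01 and 9.08 in relapse and at 8.77, 8.86 and 8.91 in control (adjusted p = 0.924). Itgb5, a beta subunit of vitronectin receptors, was above background in all pools and differed by -0.18 ± 0.10 at onset (adjusted p = 0.645).

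Of the leukocyte integrins, Itgae alone was above background in more than 2 pools. It encodes CD103, a subunit that binds E-cadherin and is carried by T cells resident in epithelia and by some dendritic cells. It was above background in 8 of 8 EAE pools and in 0 of 3 control pools. Its signal was 9.37, 9.13 and 9.22 at onset, 9.69, 9.56 and 9.11 in remission, 9.19 and 9.33 in relapse, and 8.79, 8.83 and 8.66 in control, without overlap. It was at least 1.14-fold higher at onset (adjusted p = 0.130), at least 1.33-fold higher in remission (adjusted p = 0.0600) and at least 1.16-fold higher in relapse (adjusted p = 0.677), so no comparison passed. The measured difference in remission was 0.69, but 0.23 with the mean of all 7 probes (adjusted p = 0.311) and 1.19 with the neqc background correction (adjusted p = 0.0839). With a single pool left out its adjusted p ran from 0.0108 without remission pool 3 to 0.276 without remission pool 2, and it was 0.0337 with both onset pool 3 and remission pool 3 dropped. Another probe was also above background in 8 pools, and 5 further probes were above background in none. Cdh1, which encodes E-cadherin itself, stood at 9.42, 9.38 and 9.33 at onset, 9.93, 9.63 and 9.23 in remission, 9.90 and 9.49 in relapse, and 9.31, 9.77 and 9.23 in control, with overlap throughout.

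T cell markers ran beside Itgae. Of 5 measured genes, Cd3e, Cd3d and Cd3g were above background, all of them in 8 of 8 EAE pools and 0 of 3 control pools. The other 2, Cd2 among them, were above background in no pool. The mean log2 signal of the 3 Cd3 genes was 9.10 to 9.49 at onset, 9.04 to 9.39 in remission, 9.39 to 9.48 in relapse and 8.08 to 8.67 in control. These genes entered the mean through the EAE pools alone, so its gap to control is in part set by that choice. Over all 5 measured genes the median difference from control was 0.7 at onset, 0.78 in remission and 1.01 in relapse. At onset 3 were called higher and in remission 1. The part of T cell RNA in the Itgae values was not tested.

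Itgal and Itgb2 form LFA-1, the leukocyte receptor for ICAM-1. Itgb2, the beta subunit common to this family, was above background in no pool. Its signal was 8.75, 8.35 and 8.46 at onset, 8.22, 8.51 and 8.56 in remission, 8.03 and 8.19 in relapse, and 8.11, 7.88 and 8.04 in control, and the onset pools did not overlap control (adjusted p = 0.0626). Itgal was above background in 1 onset and 1 remission pool, at 8.82, 8.73 and 8.76 at onset and 8.62, 8.95 and 8.67 in control (adjusted p = 0.979). Itgam and Itgax, the alpha subunits of myeloid cells, were above background in no pool, although general leukocyte markers had a mean of 10.28 to 10.88 at onset, 10.37 to 10.54 in remission, 10.06 to 10.17 in relapse and 9.33 to 10.02 in control.

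Ligands and partners of the members were read from lists chosen for their roles. Of the 16 collagen receptors and integrin ligands on cells, 3 were called higher at onset, and none in remission or relapse. Icam1, the LFA-1 ligand on endothelium and epithelium, stood at 13.95, 13.34 and 13.48 at onset, 12.76, 12.91 and 13.54 in remission, 12.51 and 12.41 in relapse, and 12.23, 11.96 and 12.39 in control. All EAE pools were above control, by 1.4 ± 0.20 at onset (adjusted p = 0.00828), 0.87 in remission (adjusted p = 0.137) and 0.26 in relapse (adjusted p = 0.955). Madcam1, an addressin of mucosal vessels, and Thy1, a surface glycoprotein, differed at onset by 0.86 ± 0.14 (adjusted p = 0.0143) and 0.89 ± 0.16 (adjusted p = 0.0210). Of 21 measured integrin-linked adaptors and kinases, Parvg, the parvin of blood cells, was called higher at onset (adjusted p = 0.00500) and in remission (adjusted p = 0.0164). It stood at 9.21, 8.89 and 8.92 at onset and at 8.93, 9.19 and 8.98 in remission. In relapse it stood at 8.68 and 8.60, and in control at 8.22, 8.28 and 8.25. The lowest signals above background were 8.87 and 9.01 on the relapse arrays and 8.91, 9.22 and 9.01 on the control arrays. Parvg was thus not above background in relapse or control, and its differences are of measured signals only.

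Other matrix genes gave no call in any comparison, with 26 collagen processing and cross-linking enzymes, 14 other basement membrane components and 23 other interstitial matrix components measured. Their median differences at onset were -0.03, -0.08 and 0.04. Lox, which cross-links collagen and elastin, stood at 11.04, 11.30 and 11.40 at onset, 10.61, 10.67 and 11.42 in remission, 9.79 and 10.43 in relapse, and 10.51, 10.36 and 10.67 in control. Relapse lay below all onset and remission pools and overlapped control. Its difference was 0.73 ± 0.21 at onset against control (adjusted p = 0.147) and -1.13 in relapse against onset (adjusted p = 0.0705). Among basement membrane components, Fbln2, a fibulin, differed by -0.59 ± 0.16 at onset and Fbln1 by 0.45 ± 0.13 (adjusted p = 0.127 and 0.142). Dcn, the small proteoglycan decorin that binds fibrils, differed by 0.47 ± 0.11 at onset (adjusted p = 0.0508).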

How the data were processed

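Signals of 11 CP pools on Illumina MouseRef-8 arrays were used. The authors read the arrays in BeadStudio and deposited linear signal intensity values without normalization, each probe with its detection p-value. The authors' log2 values, which they had quantile-normalized in R, were deposited too, and differ by at most 0.0888 from those made here. Labels and paper name different amplification kits, and the beadchip of each pool is not given in the sources used here. Of 23983 probes 5 were duplicates and were left out. Log2 signals were quantile-normalized and fitted in R 4.3.3 with limma 3.58.1, with 1 mean per group and a shared spread (5.53 prior degrees of freedom). All 6 comparisons were tested two-sided, with Benjamini-Hochberg adjustment over 23978 probes at 5%. Same-numbered onset and remission pools deviated together from their group means (r = 0.463, 0.329 and 0.26 for numbers 1, 2 and 3), which comes from the data and not from the labels, so this comparison was also fitted with the number as a block. Errors are SE of the fit. The paper describes the pools as separate samples, and their titles give only group and number. The p-values judge a difference between group means against the spread between pools. Each gene is represented by the probe of highest mean log2 signal, and 20917 probes have 1 gene in the platform's table.

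Members, lists and tests were chosen with earlier results of these data known. Named were called members, in each family up to 4 members with the smallest p at onset and 2 each at remission and relapse, tested chain pairs, members whose pools of 2 or more phases lay beyond all controls, and Itgb1. Col3a1, Col4a4, Col4a5, Col7a1, Col8a1, Col10a1, Col26a1, Gad1, Itgam, Itgax, Itgb5 and Cdh1 were named after their values were seen. The 10 chain pairs listed gave 4 with both probes above background in all pools. The number of arrays limits the precision. The procedure was tested on simulated data. Promoter windows are from RefSeq (GRCm38.p6). Alternatives were neqc (offset 16), the authors' values, scaling to equal medians, leaving out dim probes, other limma fits, the mean of all probes, and leaving out pools.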

Additional observations from a re-analysis of the deposited data

Results flagged for a closer look

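Col4a1 in relapse against onset is listed because the phases themselves differed by a test, with a log2 difference of -1.13 (adjusted p = 0.0423). It is listed also because its onset and remission pools all lay above, and its relapse pools all below, the control pools, which puts relapse at -1.13 from onset.

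Lama5 is listed because both relapse pools lay above all control pools and all remission pools lay below them. Remission lay at -0.21 from relapse. Relapse against remission did not pass the test (adjusted p = 0.892).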

How the results depend on the processing

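Counts of members called were computed under 21 alternatives, as were differences of the named members in all comparisons but remission against onset. The chain pairs were computed again only under median scaling and with the 2 farthest pools left out. Members called higher at onset numbered 0, but 2 with the replicate number as a block, 8 with array weights, 1 with trend and robust eBayes, and 0 to 3 with a pool left out. Members called lower at onset numbered 2 with array weights and 0 otherwise. In remission the 1 call (Col6a1) became 0 with neqc, median scaling, only the 2 groups compared, the block or the mean of all probes, 2 with array weights or with trend and robust eBayes, and 0 to 2 with a pool left out. In remission against onset 0 to 1 were called with a pool left out. In relapse against onset the 1 call (Col4a1) became 0 with neqc, the filter or trend and robust eBayes, 2 with only the 2 groups or array weights, and 0 to 2 with a pool left out. Counts in relapse against control and against remission were 0 under all 21. Col4a1 in relapse against onset gave -1.26 with neqc (adjusted p = 0.0975), -1.13 with the filter (0.0575) and -1.13 with trend and robust eBayes (0.0681). With a pool left out it ran from -1.44 to -0.82 (adjusted p = 0.0101 to 0.394). The call was lost on leaving out any 1 of the onset pools (0.0725 to 0.143), either relapse pool, remission pool 2 (0.0661) or control pool 1 (0.0882). Col6a1 in remission gave 0.74 with neqc (0.0839), 0.66 with median scaling (0.149), 0.63 with only the 2 groups (0.0574), 0.63 with the block (0.0590), 0.36 with the mean of all probes (0.120) and 0.61 without onset pool 3 and remission pool 3 (0.156). With a pool left out it ran from 0.55 to 0.69 (adjusted p = 0.0272 to 0.189), and it kept the call only where the pool left out was an onset pool or control pool 3. The causes were not tested. The mean of all probes takes in a probe not above background and another probe that was above it in all pools. The pair Lamb2 and Lamc1 turned to r = 0.147 under median scaling (adjusted p = 0.634).

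Same-numbered pools deviated together between onset and remission, where the block, chosen for these groups alone after seeing the data, also gave 0 calls. Over the other pairs of groups correlations ran from -0.586 to 0.465, the highest for relapse pool 2 with control pool 2. Remission pool 3 with control pool 3 gave 0.318, so positive values were not confined to onset and remission, and the labels give no pairing. In the other comparisons the block changed counts as given above and gave Col4a1 -1.01 in relapse against onset (adjusted p = 0.0453). Of 2998 values for 143 other results of the 29 named members, 2943 were counted as unchanged. For results with an unadjusted p under 0.05, unchanged means the same sign and still no call, whatever the size. For the rest it means a shift smaller than the spread within groups, whatever the sign. Of the former, 25 values passed the threshold (10 of them with array weights, which gave control pool 1 a weight of 3.82). Of the latter, 30 moved by more than the spread within groups. Dim probes limit what can be seen of the 29 members above background in no pool.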
